A study of Mus musculus with 10 samples.

Results

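The interferon regulatory factor (IRF) family was followed as 8 genes, Irf1, Irf2, Irf3, Irf4, Irf5, Irf7, Irf8 and Irf9. They were taken by gene name from the deposited table of 57010 genes. All 8 had enough reads to be among the 18966 genes tested. Messenger RNA was sequenced in bulk from CD8+ T cells of mouse spleen in 10 libraries. The conditional knockout (cKO) mice carried Dusp2fl/fl-E8I-cre+/-, in which the E8I-driven cre recombinase removes the floxed Dusp2 gene in cells of the CD8 lineage, and 3 such mice gave an activated and a rested library each. The floxed control mice carried Dusp2fl/fl-E8I-cre-/-, and 2 such mice gave an activated and a rested library each. Both alleles of Dusp2 were thus floxed in every mouse. Activated cells spent 24 h with beads bearing anti-CD3 and anti-CD28, which engage the receptors for antigen and costimulation, and rested cells the same time without beads. All cKO mice carried cre and no control mouse did, so effects of Dusp2 loss and of cre cannot be told apart. The sources used here do not give ages.

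IRF proteins share a DNA-binding domain that reads GAAA repeats in the promoters of interferon and interferon-stimulated genes. IRF3, IRF5 and IRF7 are switched on in the cytoplasm by kinases downstream of sensors of foreign nucleic acid, IRF9 joins STAT proteins in the complex that answers type I interferon, and IRF1 and IRF2 bind the same sites as activator and antagonist. IRF4 and IRF8 bind DNA weakly alone and pair with partners such as BATF and JUN proteins or PU.1. In CD8 T cells IRF4 is induced by T-cell receptor signals and is known to be needed for expansion, glycolysis and effector differentiation.

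Between 51203786 and 65135435 counts were available per library, and 3 counts, the limit that a count of 0 allows, are at most 0.0586 CPM (counts scaled to a common library total, counting error only). Dusp2, a phosphatase of MAP kinases and the targeted gene, was at 46.4 to 56.3 CPM in activated cKO cells and 291.8 to 298.7 CPM in activated control cells, and at 24.8 to 28.1 CPM in rested cKO cells and 87.8 to 97.4 CPM in rested control cells. No exon numbers of the floxed stretch are given in the labels. Markers of CD8 T cells, 8 genes, summed to 3059 to 3280 CPM in activated and 3596 to 3753 CPM in rested libraries. On activation 7 of the 8 fell in cKO and 6 in control cells (edgeR, adjusted p under 0.05). Of all genes tested, 31.9% fell in cKO and 27.6% in control cells. Trac rose instead, by 0.80 on the log2 scale in cKO and 0.80 in control cells. For cKO mouse 3, the titles of its libraries go against the characteristics and library names. Its activated library is titled rested cKO, and its rested library is titled activated floxed control. Dusp2 was at 52.6 CPM in its activated and 28.1 CPM in its rested library. Groups follow the characteristics and library names. Fits, list counts, each member's share of the family and ratios between members were also computed without this mouse. Correlations over libraries, group means, orders of levels, marker sums, differences within a sex and shares of genes without overlap were not. Sex coincides with the number that starts the mouse names, male in cKO mice 1 and 2 and control mouse 1, female in cKO mouse 3 and control mouse 2.

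Promoter sequence is shown for 4 members, chosen with their changes on activation known. Irf4, Irf8 and Irf1 rose on activation, as did Irf5 and Irf9, which are not shown, and Irf2 did not pass the test. The windows run from 250 bases before to 50 bases after the RefSeq start on GRCm38.p6, plus strand, Irf4 at chr13:30748983-30749282, Irf8 at chr8:120736108-120736407, Irf1 at chr11:53769764-53770063 and Irf2 at chr8:46739495-46739794. Capitals mark matches, on either strand, to a gamma-activated sequence (GAS, TTCNNNGAA, the site of STAT dimers), an interferon-stimulated response element (ISRE, GAAANNGAAA, the site of IRF proteins themselves) or the NF-kB consensus.
Irf4: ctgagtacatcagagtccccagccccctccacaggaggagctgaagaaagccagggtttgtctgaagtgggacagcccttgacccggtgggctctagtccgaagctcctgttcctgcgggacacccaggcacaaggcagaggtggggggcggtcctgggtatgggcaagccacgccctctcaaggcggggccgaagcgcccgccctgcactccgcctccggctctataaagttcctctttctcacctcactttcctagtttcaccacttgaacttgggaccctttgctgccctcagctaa
Irf8: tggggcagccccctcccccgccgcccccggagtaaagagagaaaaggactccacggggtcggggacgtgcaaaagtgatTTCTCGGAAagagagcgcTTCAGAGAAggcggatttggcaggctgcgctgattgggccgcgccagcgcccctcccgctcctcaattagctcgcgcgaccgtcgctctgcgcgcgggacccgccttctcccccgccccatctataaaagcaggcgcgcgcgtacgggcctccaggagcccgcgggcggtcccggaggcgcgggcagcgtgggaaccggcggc
Irf1: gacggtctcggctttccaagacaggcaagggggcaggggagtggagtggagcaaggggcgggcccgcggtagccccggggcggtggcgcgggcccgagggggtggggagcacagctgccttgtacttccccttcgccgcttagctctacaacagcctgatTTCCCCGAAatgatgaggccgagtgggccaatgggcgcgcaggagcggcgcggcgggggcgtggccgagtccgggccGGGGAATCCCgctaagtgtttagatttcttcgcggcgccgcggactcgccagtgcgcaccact
Irf2: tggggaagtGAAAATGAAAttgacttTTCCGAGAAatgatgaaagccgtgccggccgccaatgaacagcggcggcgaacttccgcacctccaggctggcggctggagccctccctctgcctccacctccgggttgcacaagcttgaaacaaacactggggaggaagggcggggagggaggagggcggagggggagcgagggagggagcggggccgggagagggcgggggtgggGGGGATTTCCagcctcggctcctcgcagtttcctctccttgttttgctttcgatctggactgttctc
Irf1 and Irf8 each have a further RefSeq window, at chr11:53770223-53770522 and chr8:120738389-120738688, with no match to any motif searched, and these are not printed. In the Irf1 window shown a GAS match lies 90 bases before the start and an NF-kB match 13 bases before it. The Irf8 window shown holds GAS matches at 171 and 153 bases before the start. Irf2 has the ISRE match, at 241 bases, together with a GAS match at 224 bases and an NF-kB match at 17 bases before the start. The Irf4 window held no match to these motifs or to the AP-1 site TGANTCA. Over all 32851 RefSeq windows of this length, 8.3% held the GAS letters, 3.44% the ISRE letters, 4.51% the NF-kB consensus and 7.81% the AP-1 letters. The 8 genes had 11 windows in all, of which 3 held GAS, 1 ISRE, 2 NF-kB and none AP-1. Those of Irf3, Irf5, Irf7 and Irf9, which are not printed, held no match. A match describes the sequence and is no evidence of binding.

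Activation changed most of the family in both genotypes. In activated against rested cKO cells 7 of the 8 genes passed an adjusted p of 0.05 (edgeR quasi-likelihood test, Benjamini-Hochberg over all genes tested), 5 higher (Irf4, Irf8, Irf5, Irf1, Irf9) and 2 lower (Irf7, Irf3). Of all genes tested 63.4% passed in that comparison, 31.5% higher and 31.9% lower. In activated against rested control cells the same 5 were higher and the same 2 lower, where 56.1% of all genes passed, 28.5% higher and 27.6% lower. Passing the threshold was thus common, and the family's count of changed genes is read against that background. The median log2 fold change of the 8 genes was 0.90 in cKO cells and 1.02 in control cells, against -0.0079 in cKO and -0.0023 in control cells over all genes tested. The sizes differ widely between members, as the plot of CPM in every library shows.

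**Figure D1:**
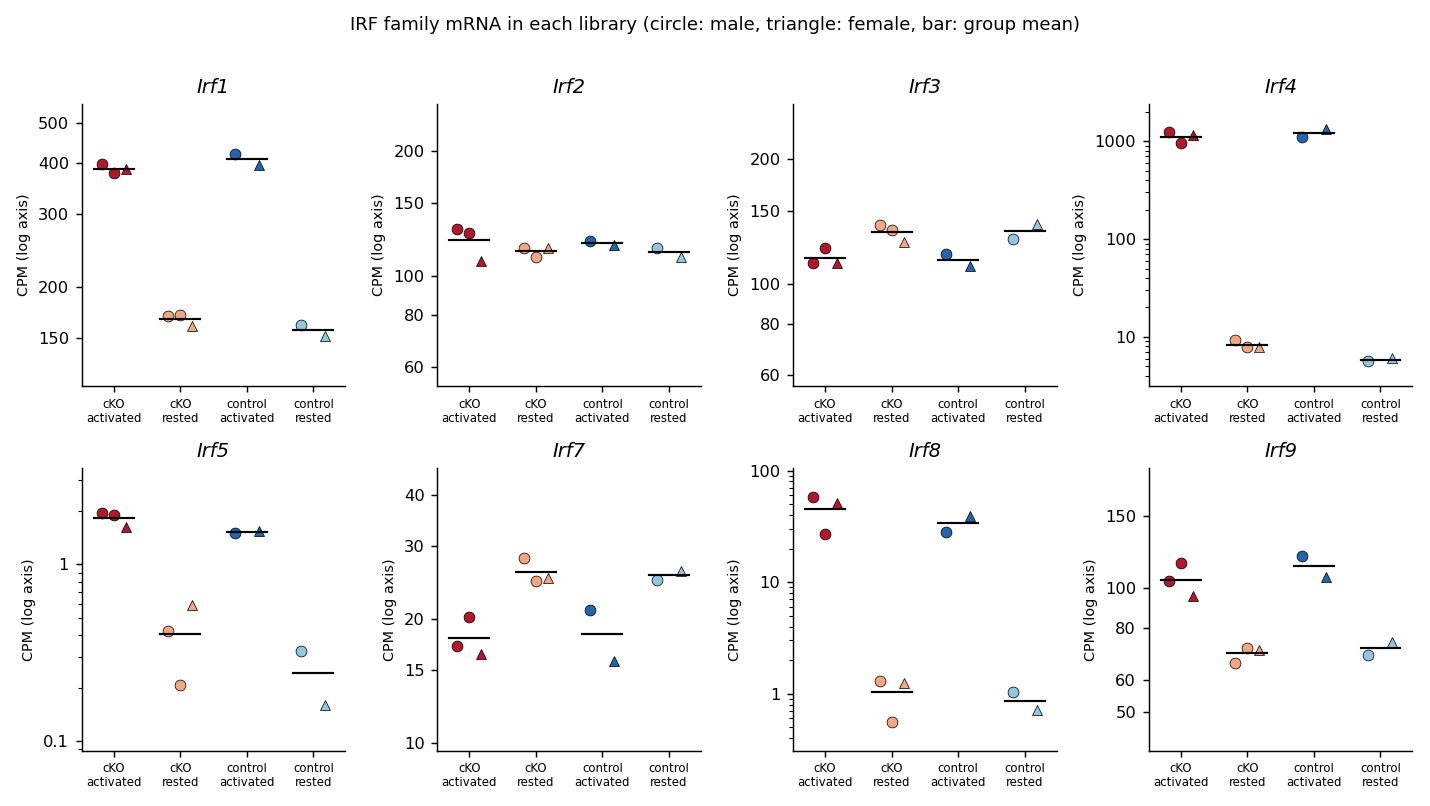
CPM of each of the 8 IRF genes (log axis, with its own range per panel) in activated cKO, rested cKO, activated control and rested control cells. Circles are male mice, triangles female mice and bars group means. Irf4 lies at 954.8 to 1337 CPM in activated and 5.62 to 9.24 CPM in rested libraries, while Irf2 stays between 108.2 and 129.8 CPM.

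Irf4 (chr13:30933209-30950959 on mm39, the build of all gene positions given here) showed the largest rise of the family. It was at 1231, 954.8 and 1165 CPM in activated cKO mice 1, 2 and 3, against 9.24, 7.81 and 7.87 CPM in the same mice at rest. Control mice 1 and 2 had 1092 and 1337 CPM when activated, against 5.62 and 6.05 CPM at rest. Every activated library stood more than 100 times above every rested one, on 55362 to 88614 counts against 328 to 460 counts. On the log2 scale the rise was 7.07 (SE 0.13, adjusted p 2.19e-11, edgeR) in cKO cells and 7.70 (SE 0.17, adjusted p 1.42e-10, edgeR) in control cells, or 134.5-fold in cKO and 207.5-fold in control cells. No other gene in the deposited annotation overlaps Irf4.

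Irf8 (chr8:121463097-121483433), the nearest relative of Irf4 and best known from dendritic cells, monocytes and B cells, was barely detected at rest and rose on activation. It had 58.3, 27.0 and 50.8 CPM in activated cKO mice 1, 2 and 3, against 1.31, 0.557 and 1.24 CPM at rest. In control mice 1 and 2 it had 28.3 and 39.3 CPM when activated, against 1.03 and 0.710 CPM at rest. Rested libraries held 32 to 67 counts of it. The mouse with the least Irf8 among the cKO mice, mouse 2, was lowest in both states. The log2 fold change was 5.48 (SE 0.45, adjusted p 6.48e-05, edgeR) in cKO cells and 5.25 (SE 0.55, adjusted p 0.000305, edgeR) in control cells. On the log2(FPKM + 0.5) scale the same changes were 3.40 in cKO and 3.11 in control cells by limma, since the pseudocount exceeds the rested level.

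Of 8 markers of dendritic cells, Zbtb46 and Itgax moved with Irf8, and the part of such cells in the result was not tested. The sum over all 8 markers was 14.5 to 15.3 CPM in activated and 1.42 to 1.95 CPM in rested cKO cells. In control cells it was 12.9 to 14.5 CPM when activated and 1.03 to 1.75 CPM at rest. Zbtb46, a factor of classical dendritic cells, was the largest part, at 12.9 CPM in activated and 1.07 CPM in rested cKO cells, and 12.4 CPM in activated and 1.13 CPM in rested control cells. Itgax, the integrin CD11c, came next, at 1.79 CPM in activated and 0.53 CPM in rested cKO cells, and 1.17 CPM in activated and 0.234 CPM in rested control cells. These 2 markers had enough reads to be tested and both rose in each genotype, Zbtb46 by 3.59 (adjusted p 4.7e-10) in cKO and 3.46 (adjusted p 7.76e-09) in control cells and Itgax by 1.74 (adjusted p 0.00305) in cKO and 2.28 (adjusted p 0.00463) in control cells on the log2 scale (edgeR). The defining markers Siglech, Cd209a and Cd300c had no count in any group, Xcr1 and Clec9a had none in control cells, and both averaged at most 0.0227 CPM in cKO cells. Flt3 averaged 0.0891 CPM in activated and 0.109 CPM in rested cKO cells, and 0.142 CPM in activated and 0.0266 CPM in rested control cells. B-cell markers, 10 genes, summed to 3.52 to 3.80 CPM in activated cKO, 6.004 to 6.89 CPM in rested cKO, 3.49 to 3.73 CPM in activated control and 5.39 to 6.58 CPM in rested control cells. That difference lay mostly in Cd79b, at 2.41 CPM in activated and 4.89 CPM in rested cKO cells, and 2.27 CPM in activated and 4.80 CPM in rested control cells. Of the 3 B-cell markers tested, 2 fell in cKO cells (Cd79b, Cd79a; 1 of them without cKO mouse 3) and 1 (Cd79b) in control cells, where Cd79a and Cd22 had log2 changes of 0.19 and 0.38 that did not pass (edgeR). Macrophage and monocyte markers, also 10 genes, summed to 13.3 to 17.3 CPM in activated cKO, 9.32 to 13.4 CPM in rested cKO, 13.7 to 15.6 CPM in activated control and 11.4 to 12.5 CPM in rested control cells. Most of that was Cd68, and C1qb and Fcgr1 had no count. Markers of CD4 and regulatory T cells, 5 genes, summed to 45.4 to 61.9 CPM in activated cKO, 14.7 to 21.2 CPM in rested cKO, 54.3 to 57.1 CPM in activated control and 16.0 to 17.2 CPM in rested control cells, mostly from Ctla4 when activated and from Ikzf2 and Ctla4 at rest, while Cd4 and Foxp3 averaged under 1 CPM. In bulk RNA, fewer cells of a type and less RNA per cell cannot be told apart.

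The ratio of Irf4 to Irf8, taken per length in FPKM (counts scaled by gene length and library total), described how the 2 relatives shifted against each other. It was 38.1 ± 11.1 in activated and 13.2 ± 6.1 in rested cKO cells (SD, n = 3 each), and 52.3 ± 4.7 in activated and 10.1 ± 3.1 in rested control cells (SD, n = 2 each). It was higher in the activated library of all 5 mice. Among activated libraries it ran from 30.4 in cKO mouse 1 to 55.6 in control mouse 1, with cKO mouse 2 at 50.8 inside the control range.

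Irf1 (chr11:53660841-53669200), an activator of MHC class I and antiviral genes, had 397.7, 377.4 and 385.8 CPM in activated cKO mice 1, 2 and 3, against 169.4, 170.7 and 160.5 CPM at rest. Control mice 1 and 2 had 419.0 and 395.4 CPM when activated, against 161.4 and 151.9 CPM at rest. The states did not overlap and the mice of a group differed by little. The log2 fold change was 1.21 (SE 0.05, adjusted p 3.18e-10, edgeR) in cKO cells and 1.38 (SE 0.06, adjusted p 1.44e-09, edgeR) in control cells.

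Irf2 (chr8:47192767-47300493), which binds the sites of Irf1 and opposes it, had 129.8, 127.1 and 108.2 CPM in activated cKO mice 1, 2 and 3, against 116.5, 111.2 and 116.7 CPM at rest. In control mice 1 and 2 it had 121.4 and 118.9 CPM when activated, against 116.8 and 110.9 CPM at rest. Only cKO mouse 3 had less Irf2 when activated, and Irf2 did not pass the test in either genotype, with log2 fold changes of 0.08 (95% interval -0.05 to 0.21) in cKO and 0.08 (-0.08 to 0.24) in control cells. Without cKO mouse 3 the rise of Irf2 in cKO cells was 0.17 (adjusted p 0.0257, edgeR), so that mouse decided the call. The per-length ratio of Irf1 to Irf2 was 5.95 ± 0.60 in activated and 2.71 ± 0.15 in rested cKO cells (SD, n = 3 each), and 6.30 ± 0.16 in activated and 2.56 ± 0.02 in rested control cells (SD, n = 2 each). It ran from 5.53 to 6.64 over the activated libraries and from 2.55 to 2.85 over the rested ones.

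The sensor-driven members fell or were scarce. Irf7 (chr7:140842619-140846394), the amplifier of type I interferon production, had 17.2, 20.2 and 16.5 CPM in activated cKO mice 1, 2 and 3, against 28.1, 24.7 and 25.1 CPM at rest. Control mice 1 and 2 had 21.0 and 15.9 CPM when activated, against 24.9 and 26.2 CPM at rest. It was lower in the activated library of all 5 mice, with a fitted log2 change of -0.53 (SE 0.10, adjusted p 0.000261, edgeR) in cKO and -0.48 (SE 0.12, adjusted p 0.00326, edgeR) in control cells. The control call rested on control mouse 2, without which the change was -0.24 (adjusted p 0.259, edgeR).

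Irf3 (chr7:44647072-44652272), the constitutive partner of Irf7 in the first wave of interferon induction, fell by a small amount. It had 111.9, 121.7 and 112.2 CPM in activated cKO mice 1, 2 and 3, against 139.1, 134.6 and 126.1 CPM at rest, and 117.9 and 110.2 CPM in activated control mice 1 and 2, against 128.2 and 139.5 CPM at rest. The groups did not overlap in either genotype, with log2 fold changes of -0.21 (SE 0.06, adjusted p 0.00643, edgeR) in cKO and -0.23 (SE 0.07, adjusted p 0.0131, edgeR) in control cells. The call was lost in cKO cells without cKO mouse 1 (-0.16, adjusted p 0.101, edgeR) and in control cells without control mouse 2 (-0.11, adjusted p 0.437, edgeR). It was also lost on log2(FPKM + 0.5) by limma, at -0.14 (adjusted p 0.0731) in cKO and -0.16 (adjusted p 0.101) in control cells.

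Irf5 (chr6:29526624-29541870), which acts below Toll-like receptors in myeloid and B cells, was the scarcest member. It had 119, 110 and 97 counts in activated cKO mice 1, 2 and 3, against 21, 12 and 32 counts at rest, and 90 and 103 counts in activated control mice 1 and 2, against 19 and 9 counts at rest. Activated libraries were above all rested ones, and none exceeded 1.95 CPM. The log2 fold change was 2.17 (SE 0.33, adjusted p 5.38e-05, edgeR) in cKO and 2.64 (SE 0.43, adjusted p 0.000135, edgeR) in control cells. On log2(FPKM + 0.5) it was 0.85 in cKO and 0.84 in control cells by limma. Irf5 shares 1045 bp with Tnpo3 on the opposite strand, which had 87876 counts over the 10 libraries against 612 of Irf5, and whose own log2 change on activation was 0.40 in cKO and 0.43 in control cells. The kit was stranded, but the sources used here do not say whether counting used the strand, so reads of Irf5 and Tnpo3 may not be fully separated.

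Irf9 (chr14:55841028-55847487), the DNA-binding subunit of the complex that answers type I interferon, had 104.0, 115.0 and 95.95 CPM in activated cKO mice 1, 2 and 3, against 65.96, 71.6 and 71.0 CPM at rest. Control mice 1 and 2 had 119.7 and 106.6 CPM when activated, against 68.7 and 74.2 CPM at rest. All activated libraries were above all rested ones. The rise was 0.59 on the log2 scale (SE 0.07, adjusted p 6.15e-06, edgeR) in cKO and 0.66 (SE 0.09, adjusted p 2.16e-05, edgeR) in control cells. Irf9 shares 123 bp with Rnf31 on the same strand, and Rnf31 fell, with log2 changes of -0.39 in cKO and -0.34 in control cells. Irf3 shares 1065 bp with Bcl2l12 and Irf7 45 bp with Phrf1, both on the opposite strand.

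**Figure D2:**
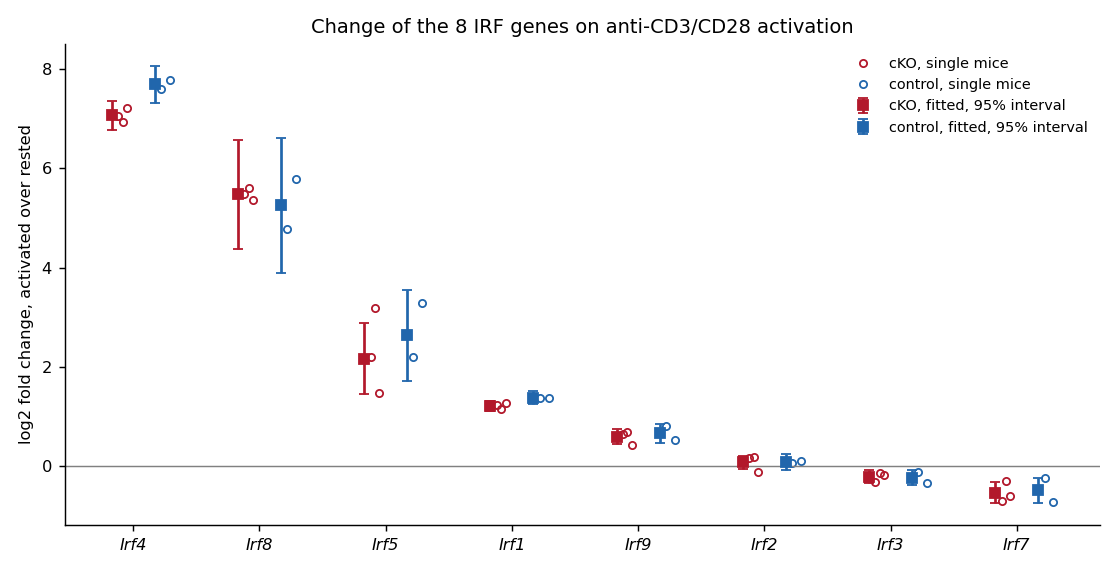
Log2 fold change of each IRF gene in activated over rested cells, for cKO mice in red and control mice in blue. Squares with bars are the fitted change with its 95% interval and open circles are single mice. Irf4 is at 7.07 in cKO and 7.70 in control cells, and the single cKO and control mice do not overlap for it.

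Set side by side per length, the family changed its leading member. Its summed level was 415.6 ± 30.6 FPKM in activated and 115.3 ± 2.4 FPKM in rested cKO cells (SD, n = 3 each), and 440.3 ± 25.3 FPKM in activated and 112.4 ± 1.4 FPKM in rested control cells (SD, n = 2 each). Irf4 made up 55.9% ± 3.2 of that sum in activated and 1.44% ± 0.11 in rested cKO cells (SD, n = 3 each), and 57.4% ± 4.5 in activated and 1.03% ± 0.04 in rested control cells (SD, n = 2 each). Irf1 and Irf3 led at rest. Irf1 held 35.6% in rested cKO and 34.2% in rested control cells, and Irf3 held 32.8% in rested cKO and 33.8% in rested control cells.

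The order of the levels per length in activated cells of both genotypes was Irf4, Irf1, Irf3, Irf9 and Irf2, with no overlap between neighbours. Irf8 and Irf7 followed with overlapping ranges, 3.93 to 8.46 and 4.45 to 5.48 FPKM in activated cKO cells and 4.12 to 5.67 and 4.27 to 5.71 FPKM in activated control cells. Irf5 was last, at 0.643 FPKM in activated cKO and 0.538 FPKM in activated control cells. In rested cells the order was Irf1, Irf3, Irf2, Irf9, Irf7 and Irf4, with Irf8 and Irf5 both under 0.2 FPKM and overlapping. Irf1 and Irf3 overlapped in rested control cells, at 37.4 to 39.6 and 36.3 to 39.7 FPKM, and did not in rested cKO cells.

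**Figure D3:**
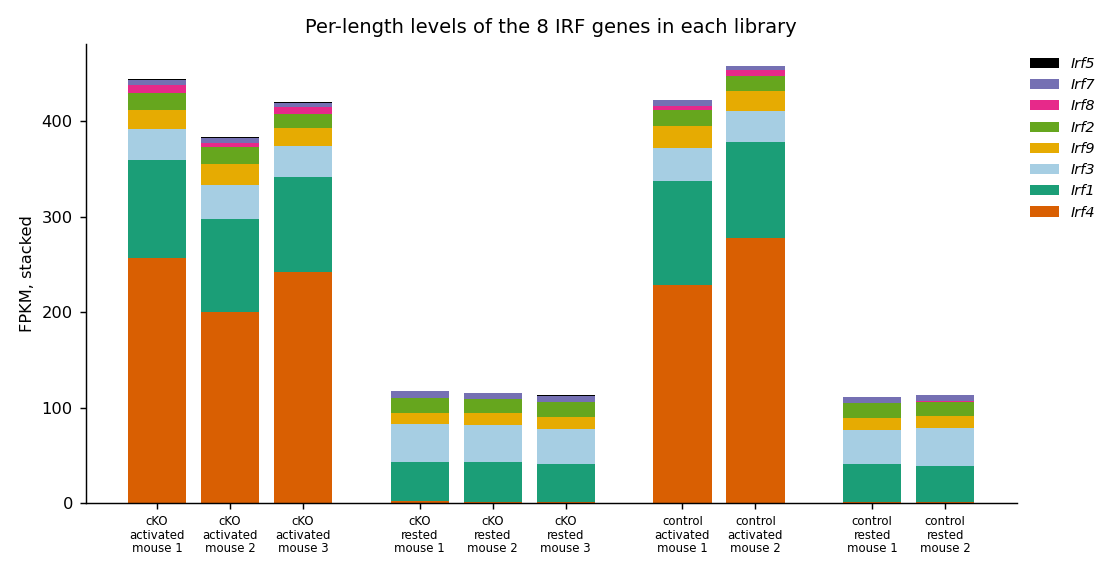
FPKM of the 8 IRF genes stacked for each library, in activated cKO, rested cKO, activated control and rested control mice. Activated libraries reach 383.1 to 458.1 FPKM in sum, with Irf4 (orange) as the largest part, and rested libraries 111.4 to 117.4 FPKM, with Irf1 and Irf3 as the largest parts.

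Partners and pathways of the family were read from lists, and no list was tested as a set. Of all genes tested, 31.5% were called higher and 31.9% lower on activation in cKO cells. In control cells these shares were 28.5% and 27.6%. A list count near these shares is not particular to that list. Of 15 DNA-binding partners of IRF4 and IRF8, 13 were tested, and on activation 7 rose and 4 fell in cKO cells, and 5 rose and 2 fell in control cells. Nfatc1, a calcium-driven factor, rose by 0.95 (SE 0.06) on the log2 scale in cKO and 1.08 (SE 0.07) in control cells. Bcl6, a repressor that meets IRF4 in follicular and memory programmes, rose by 1.71 (SE 0.10) in cKO and 1.93 (SE 0.12) in control cells. Junb, an AP-1 partner of BATF and IRF4, rose by 1.02 (SE 0.07) in cKO and 0.88 (SE 0.09) in control cells. The median log2 change of the list was 0.29 in cKO and 0.18 in control cells.

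Of 15 effector and metabolic genes that need IRF4 in CD8 T cells, 7 rose and 5 fell in each genotype, with medians of 0.61 in cKO and 0.50 in control cells. Hif1a, which drives glycolytic genes, rose by 1.15 (SE 0.07) in cKO and 1.14 (SE 0.09) in control cells. Tcf7, a factor of naive and memory cells, fell by 1.05 (SE 0.07) on the log2 scale in cKO and by 1.00 (SE 0.08) in control cells.

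Interferon receptors, JAKs, STATs and their feedback genes mostly fell, 5 higher and 8 lower of 14 in cKO cells and 4 higher and 8 lower in control cells, with medians of -0.49 in cKO and -0.43 in control cells. Ptpn2, a phosphatase of JAKs and STATs, rose by 0.87 (SE 0.05) in cKO and 0.98 (SE 0.06) in control cells. Jak1, the kinase shared by interferon receptors, fell by 1.17 (SE 0.06) in cKO and by 1.06 (SE 0.07) in control cells. The sensors, adaptors and kinases that switch on IRF3 and IRF7 were mixed, 5 higher and 7 lower of 18 in cKO and 5 higher and 6 lower in control cells. Among them Cgas, the DNA sensor, rose by 1.08 (SE 0.10) in cKO and 1.12 (SE 0.12) in control cells. Tank, an adaptor of the kinase TBK1, rose by 0.55 (SE 0.06) in cKO and 0.78 (SE 0.07) in control cells. Traf3, an adaptor of the same route, rose by 0.43 (SE 0.05) in cKO and 0.54 (SE 0.06) in control cells.

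Targets of the family were as mixed. Of 24 antiviral genes with response elements for IRF proteins 23 were tested, with 9 higher and 6 lower in cKO and 7 higher and 6 lower in control cells, and medians of 0.10 in cKO and 0.16 in control cells. Bst2, which tethers virions, rose by 1.18 (SE 0.07) in cKO and 1.02 (SE 0.09) in control cells. Isg20, an exonuclease, rose by 1.21 (SE 0.14) in cKO and 1.42 (SE 0.17) in control cells. Ifit2, which binds viral RNA, fell by 1.48 (SE 0.08) in cKO and by 1.45 (SE 0.10) in control cells. Of 10 MHC class I and NLRC5 genes, 3 rose and 2 fell in cKO and 3 rose and 1 fell in control cells. Nlrc5, the transactivator of MHC class I, rose by 0.58 (SE 0.05) in cKO and 0.75 (SE 0.07) in control cells, and Tapbp, the tapasin chaperone, rose by 0.34 (SE 0.05) in cKO and 0.38 (SE 0.06) in control cells. Tap2, a peptide transporter subunit, fell by 0.33 (SE 0.06) in cKO and by 0.38 (SE 0.08) in control cells.

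**Figure D4:**
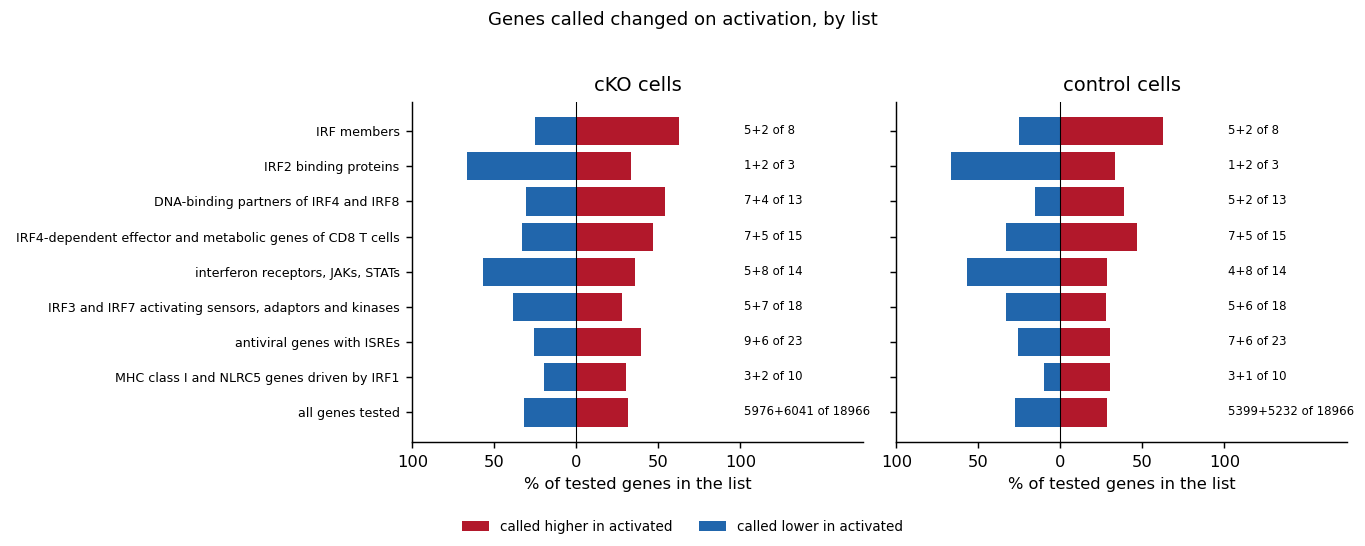
Share of tested genes called higher (red, to the right) or lower (blue, to the left) in activated against rested cells, in % of each list, for cKO and control cells, with the counts higher plus lower at the right. All genes tested stand in the lowest bar, at 31.5% higher and 31.9% lower in cKO and 28.5% and 27.6% in control cells, and the 8 IRF genes in the top bar, at 5 higher and 2 lower.

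Without cKO mouse 3, whose titles go against its other labels, all 8 members passed in activated against rested cKO cells, 6 higher and 2 lower (edgeR), where 56.3% of all genes tested passed. The added one was Irf2. The rises were 7.01 for Irf4, 5.55 for Irf8, 2.62 for Irf5, 1.19 for Irf1 and 0.67 for Irf9, and the falls were -0.50 for Irf7 and -0.23 for Irf3, on the log2 scale. The summed level of the family was then 413.5 ± 42.9 FPKM in activated and 116.6 ± 1.1 FPKM in rested cKO cells (SD, n = 2 each). Irf4 held 55.0% ± 4.0 of it in activated and 1.45% ± 0.15 in rested cKO cells (SD, n = 2 each). The ratio of Irf4 to Irf8 was 40.6 ± 14.5 in activated and 15.2 ± 7.1 in rested cKO cells, and that of Irf1 to Irf2 5.61 ± 0.12 in activated and 2.78 ± 0.10 in rested cKO cells (SD, n = 2 each). The counts of the lists in cKO cells became 7 higher and 2 lower for the DNA-binding partners, 7 and 5 for the IRF4-dependent genes, 4 and 6 for the interferon receptors, JAKs and STATs, 5 and 6 for the sensors, adaptors and kinases, 8 and 5 for the antiviral genes, and 3 and 1 for the MHC class I genes. Each pathway gene named above with a rise or fall passed in the same direction without that mouse (edgeR).

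No member was called different between genotypes within a state. In rested cells none of the 8 genes passed (edgeR, adjusted p of 0.05), where 8 of all genes tested did, 0.0422%, and 1 of the 8 had an unadjusted p under 0.05. In activated cells none passed either, where 8 of all genes tested did, again 0.0422%, and none of the 8 had an unadjusted p under 0.05. For Irf1, Irf2, Irf3, Irf7 and Irf9 the 95% intervals of the difference ran no further than -0.24 to 0.23 on the log2 scale at rest and -0.29 to 0.18 when activated. Irf5 and Irf8 were known less well. At rest their intervals were -0.23 to 1.69 and -1.43 to 1.95, and when activated -0.44 to 0.96 and -0.42 to 1.39.

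**Figure D5:**
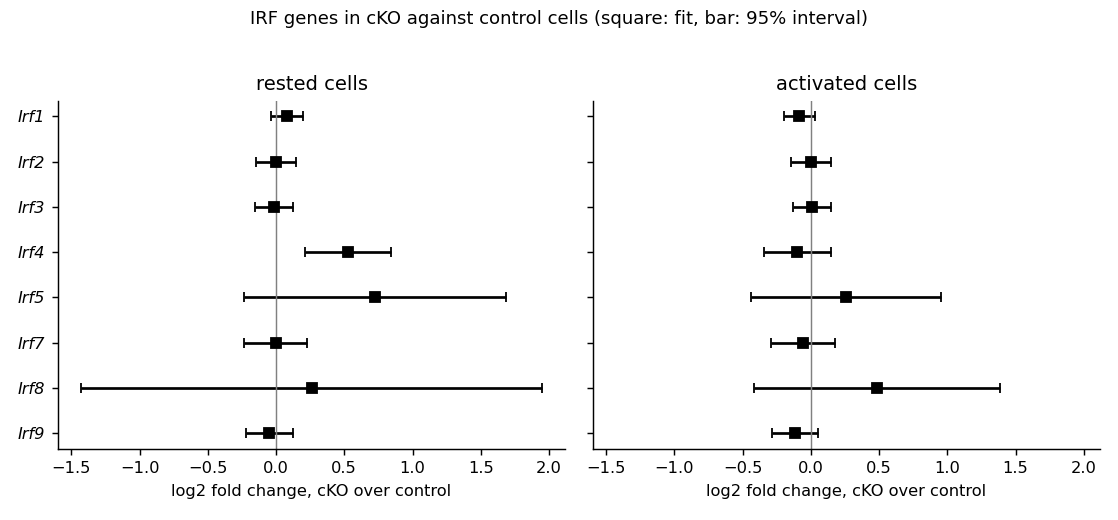
Log2 fold change of each IRF gene in cKO over control cells, at rest (left) and activated (right), with 95% intervals from the fit over all 10 libraries. The interval of Irf4 at rest, 0.21 to 0.84, is the only one that leaves out 0 before adjustment, and the intervals of Irf5 and Irf8 are the widest.

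Irf4 at rest was the member with the smallest p. With 9.24, 7.81 and 7.87 CPM in rested cKO mice 1, 2 and 3, against 5.62 and 6.05 CPM in rested control mice 1 and 2, the groups did not overlap, which held for 17.7% of all genes tested. The log2 fold change was 0.53 (SE 0.14, unadjusted p 0.00387, adjusted p 0.996, edgeR). Within males, with 2 cKO mice and 1 control mouse, the difference was 0.59, and within females, with 1 mouse a group, 0.38. Leaving out cKO mouse 3 gave 0.66 (adjusted p 1, edgeR). DESeq2's Wald test put the same difference past the threshold, at 0.52 (adjusted p 0.0422), and so did edgeR with no low-count filter, at 0.52 (adjusted p 2.88e-08). Over all 12 alternatives the adjusted p ran from 2.88e-08 to 1 and these 2 alone passed.

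Markers of NK cells also stood higher in cKO libraries, and their part in the Irf4 difference was not tested. Their sum over 8 genes was 6.04 to 8.51 CPM in rested cKO and 3.10 to 4.85 CPM in rested control cells, and 5.05 to 6.05 CPM in activated cKO and 2.23 to 3.70 CPM in activated control cells. At rest all 7 NK markers tested had a positive log2 difference, with a median of 0.76, and when activated 6 of 7 did, with a median of 0.73. None passed in either comparison, and 2 (Klre1, Gzma) had an unadjusted p under 0.05 in each (edgeR). Without cKO mouse 3 the medians were 0.89 at rest and 0.57 when activated, and 1 marker had such a p in each. Ncr1, a receptor of NK cells, had no count in rested cells and averaged 0.0339 CPM in activated cKO and 0.0167 CPM in activated control cells. Cd4 also stood apart at rest, at 0.679 to 1.22 CPM in cKO and 0.16 to 0.326 CPM in control cells, with a log2 difference of 1.87 (SE 0.50, unadjusted p 0.0024, adjusted p 0.941, edgeR). It was the only one of 5 CD4 and regulatory T-cell markers with an unadjusted p under 0.05 there, and its part in the Irf4 difference was not tested either.

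After activation the Irf4 groups overlapped, with 954.8 to 1231 CPM in cKO and 1092 to 1337 CPM in control cells and a log2 difference of -0.10 (SE 0.11, adjusted p 0.903, edgeR). Irf5 was the member whose activated groups did not overlap, with 1.63 to 1.95 CPM in cKO and 1.51 to 1.56 CPM in control cells, as 17.1% of all genes tested did. The log2 difference was 0.26 (SE 0.32, adjusted p 0.913, edgeR). Irf8 spread most within the genotypes, its cKO mice at 27.0 to 58.3 CPM enclosing both control mice at 28.3 and 39.3 CPM.

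The size of the activation change was also compared between genotypes, as the interaction of genotype and activation. Irf4 rose 133.3-, 122.2- and 148.0-fold in cKO mice 1, 2 and 3, against 194.1- and 221.1-fold in control mice 1 and 2. Irf1 rose 2.35-, 2.21- and 2.40-fold in cKO mice 1, 2 and 3, against 2.60-fold in both control mice. For both genes every cKO mouse changed less than every control mouse, and the changes of the other 6 members overlapped. Changes without overlap were found for 16.3% of all genes tested. The interaction was -0.63 (SE 0.18, 95% interval -1.02 to -0.23, unadjusted p 0.00532, adjusted p 1, edgeR) for Irf4 and -0.16 (SE 0.08, 95% interval -0.33 to -0.0014, unadjusted p 0.0483, adjusted p 1, edgeR) for Irf1. No gene passed in the interaction, 0% of those tested, and 519 had an unadjusted p under 0.05. DESeq2's Wald test called 3 genes there, none of the 8, with Irf4 at an adjusted p of 0.505. Without the low-count filter edgeR called 39 genes and Irf4 among them, at -0.62 (adjusted p 1.17e-06). The comparison of Irf4 at rest and that of its change share the rested libraries. Without cKO mouse 3 the interaction was -0.69 for Irf4 and -0.19 for Irf1 (adjusted p 1 for both, edgeR), and no member passed in any genotype comparison. Irf5 moved most, its log2 difference at rest being 0.23 without that mouse against 0.73 with it, and its interaction -0.05 without it.

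The partner, pathway and target lists had no gene past the threshold in either genotype comparison or in the interaction (edgeR), and at most 1 gene per list had an unadjusted p under 0.05 in any of the 3. Their medians lay between -0.04 and 0.05 on the log2 scale in all 3, against 0.0038 at rest, 0.0026 when activated and -0.0096 in the interaction over all genes tested. Without cKO mouse 3 none of these genes passed either (edgeR), and the list medians lay between -0.15 and 0.07. Of the 15 IRF4-dependent genes none had an unadjusted p under 0.05 in any of the 3 with all mice. Bhlhe40, a repressor induced with effector function, had log2 differences of 0.52 (SE 0.31) at rest and -0.07 (SE 0.23) when activated. Without cKO mouse 3, Prdm1 of this list differed by 0.38 (unadjusted p 0.0413, edgeR) at rest. When activated it then differed by 0.63 (unadjusted p 0.00321, edgeR), and it passed in neither state. Nlrc5 had the smallest unadjusted p of the MHC class I list in activated cells, 0.011, with a log2 difference of -0.18 (SE 0.06, adjusted p 0.735, edgeR).

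Genes whose pattern over the 10 libraries was most like each member were found by Pearson's r of log2 CPM among at least 9346 genes of at least 5 CPM on average. The libraries form an activated and a rested cluster, so r mainly reflects that split. For Irf4 they were Mettl1 (r = 0.999), Hivep3 (0.999) and Spry1 (0.999), for Irf8 Clpb (0.998), Ptger2 (0.997) and Thg1l (0.997), and for Irf1 Rasgef1b (0.998), Irgm1 (0.998) and Psat1 (0.998). Irf9 was nearest to Acot2 (0.991), Ears2 (0.987) and Per1 (0.986), and Irf5 to Il18bp (0.984), Grasp (0.984) and Ncoa4 (0.977). Of the members that fell, Irf7 was nearest to Ero1lb (0.988), Cbx8 (0.981) and Wbp2 (0.980), and Irf3 to Nprl2 (0.980), Mettl23 (0.979) and Clk2 (0.979). Irf2 had no close match, with r of 0.831 for Pde4dip, 0.825 for Zbtb18 and 0.824 for Ccdc90b.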

How the data were processed

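Whole-number counts per gene and library, with no normalization, and FPKM values were deposited by the authors in a table of 57010 genes. Per the submitters' processing notes, mm39 was the build and Subread, FastQC and MultiQC (no versions) were used. Annotation release and strand setting of the counting are not stated in those notes or labels. The deposited FPKM values equal the count divided by the column sum and by gene length (plus 1), so they add no reads. They served for levels between genes and as an alternative. Per the labels' protocols, libraries came from total RNA with a stranded mRNA kit. The members and the gene lists were chosen with earlier results of these data known.

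Counts were analysed with R 4.3.3 and edgeR 4.0.16, using TMM scaling (factors 0.973 to 1.03), filterByExpr by group (18966 genes), and a robust quasi-likelihood fit of group means plus sex over all 10 libraries, with 5 residual degrees of freedom. CPM are TMM-scaled. Called means an adjusted p under 0.05, by Benjamini-Hochberg over every gene of a comparison. Rested and activated libraries of a mouse come from the same animal, and their deviations from group means had correlations of 0.15 to 0.33 in cKO and 0.36 in control mice. No library repeats another, since chi-square between replicates was 8.55 to 41.7 per degree of freedom. Mice are separate animals.

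Alternatives were DESeq2 size factors, no filter or a stricter one (5 CPM in 2 libraries), no sex term, mouse as a block, DESeq2 1.42.0, limma 3.58.1 on log2(FPKM + 0.5), only the groups compared, and each mouse left out. Named genes are the 8 members, the IRF2 binding proteins, Dusp2, up to 3 genes per list with the smallest p in activated against rested control cells, and the 3 genes most like each member. Some genes this rule names are not reported here. Bhlhe40, Prdm1, the overlapping genes and the marker genes were named outside that rule, with values seen. Motifs were searched on both strands of RefSeq promoter windows of GRCm38.p6. Coordinates of genes are those of the deposited table (mm39) and were not converted. Tables and figures used Python 3.11.15.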

Additional observations from a re-analysis of the deposited data

How the results depend on the processing

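On activation, all 5 rises kept their direction and call in both genotypes under every alternative run, with Irf4 between 6.75 and 7.15 in cKO and between 7.25 and 7.79 in control cells (log2). The stricter filter removed Irf5, so it gave no value there. With mouse as a replicate block, 7 of the 8 genes were called in each genotype and 0 in the interaction, where Irf4 was -0.63, and no call changed. A block leaves no value for cKO against control within a state. Counts of called members differed from 0 in 3 comparisons. At rest 1 gene (Irf4) was called without a low-count filter and 1 (Irf4) by DESeq2, in activated cells 1 (Irf8, 0.49, adjusted p 0.000198, edgeR) without the filter, and in the interaction 1 (Irf4) without the filter. That unfiltered edgeR fit gave Irf4 and Irf8 an infinite prior degrees of freedom, against 5.44 and 0.899 with the filter, and called 204, 211 and 39 genes in the 3 comparisons, against 8, 8 and 0. DESeq2 called 29, 21 and 3 genes, and limma 5, 4 and 0. Without cKO mouse 2, edgeR called 25 genes at rest and 49 when activated. The activation calls lost or gained are given with Irf2, Irf3 and Irf7 above. Their cause was not tested. Near-zero differences changed sign. For cKO against control at rest, Irf2 was 0.00341 and Irf7 0.000118 with the stricter filter, Irf2 0.012 and Irf7 0.0231 with no sex term, Irf7 0.000236 by limma, and Irf2 0.00775 and Irf7 0.0187 with only the groups compared. In activated cells Irf2 was -0.00565 with only the groups compared. In the interaction Irf2 was -0.00228 with the stricter filter and Irf5 0.00852 by limma. With each mouse left out in turn, values at rest ran from -0.0372 to 0.0263 for Irf2, -0.146 to 0.0763 for Irf3, -0.117 to 0.0939 for Irf7, -0.129 to 0.687 for Irf8 and -0.16 to 0.0338 for Irf9. In activated cells they ran from -0.032 to 0.0686 for Irf2, -0.0205 to 0.0396 for Irf3, -0.247 to 0.0266 for Irf4 and -0.19 to 0.1 for Irf7. In the interaction they ran from -0.0397 to 0.0948 for Irf2, -0.0824 to 0.158 for Irf3, -0.284 to 0.217 for Irf7, -0.283 to 0.708 for Irf8 and -0.204 to 0.0938 for Irf9. None of these passed the threshold (edgeR or limma). Where a control mouse is left out, the other is assumed to vary like the rest. With 3 cKO and 2 control mice and 9 to 67 rested counts of Irf5 and Irf8, differences of those 2 genes at rest are known only within wide intervals.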

Other observations

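The IRF2 binding proteins, corepressors first found with IRF2, moved in both directions on activation. Irf2bp2 averaged 163.3 ± 8.2 CPM in activated and 70.1 ± 6.9 CPM in rested cKO cells (SD, n = 3 each), and 157.8 ± 7.3 CPM in activated and 70.0 ± 2.6 CPM in rested control cells (SD, n = 2 each). Irf2bpl averaged 50.2 ± 4.1 CPM in activated and 117.8 ± 3.6 CPM in rested cKO cells (SD, n = 3 each), and 50.5 ± 0.2 CPM in activated and 119.9 ± 4.2 CPM in rested control cells (SD, n = 2 each). Irf2bp1 fell less, by log2 changes of -0.34 (SE 0.06) in cKO and -0.44 (SE 0.08) in control cells. None of these 3 genes passed in cKO against control cells, rested or activated (edgeR).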
